A study of Mus musculus with 30 samples.

Results

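The families described here are mostly old long terminal repeat (LTR) retrotransposons. They were taken by name alone, as the rows named MLT1, MLT2 or LTR followed by a number in 2 sperm RNA count tables. The rule found 61 families among 584 transposable element families, and 3082 features of all kinds, 46 days after the last injection. It found 76 families among 634 transposable element families, and 16242 features, 24 h after it. Of these, 55 families had a row in both tables, 6 at 46 days only and 21 at 24 h only.

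Mice (C57Bl/6J) aged 3 months received tesaglitazar, a dual agonist of the nuclear receptors PPARα and PPARγ, at 10 µg per kg intraperitoneally 2 times a week for 4 weeks (Tesa-inj, labelled TESA), or the same DMSO in saline (Vehicle-inj, labelled CTRL). Swim-up sperm treated with somatic cell lysis buffer gave 7 TESA and 7 CTRL libraries of total RNA depleted of rRNA at 46 days, numbered KG8-01 to KG8-14, and 4 TESA and 4 CTRL libraries of polyadenylated RNA at 24 h, numbered ai_1 to ai_8. Time point and library type cannot be told apart. The methods count animals as n, but no label ties a library to a male. The p-values thus set a group difference against the spread between these libraries and may not extend to males. For sperm RNA the paper gives a smaller n for Tesa-inj than for Vehicle-inj, with n counted once outliers were removed. All 7 TESA libraries at 46 days were used here.

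MLT1 elements are old members of the mammalian apparent LTR retrotransposons (MaLR), whose younger mouse relatives are the MT and ORR1 families. MLT2 and several numbered LTR families, such as LTR16, LTR33, LTR40 and LTR41, are old LTRs of the ERVL class. Their copies are mutated, mostly solitary LTRs scattered through introns and intergenic DNA, so their RNA is often part of a longer host transcript. Within MLT1 the letters follow age only roughly, with A among the younger and the later letters among the older. In the male germline, transposable elements are held in check by DNA methylation, by repressive histone methylation guided by KRAB zinc finger proteins and TRIM28, and by the piRNA pathway.

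Each family is a sum of salmon's estimated counts over all its copies, so reads of related families can be shared between rows. Families whose names differ only by a last letter or number are the most exposed to this. Levels are given as CPM of an effective library size, set in 2 ways. In the first, trimmed mean of M values (TMM) factors were computed over all features. In the second, called scaling over elements only, TMM factors and library totals came from the tested elements alone, so that a difference is relative to the typical element. Family lengths were not used here, so levels are compared between libraries and not between families.

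At 46 days the library totals lay between 4538102 and 13513816 counts, of which the members took 833 (KG8-02) to 33246 (KG8-14). At 24 h the totals lay between 15337589 and 27709990, and the members took 4566 (ai_1) to 14419 (ai_7). Testing required over 20 counts in 6 or more of the 14 libraries (46 days), or in 4 or more of the 8 (24 h). This kept 59 of 61 members among 567 tested elements at 46 days, leaving out LTR16A2 and LTR85a. It kept 50 of 76 members among 542 tested elements at 24 h. The 26 members left out at 24 h were mostly numbered LTRs such as LTR16B1, LTR40c, LTR52 and LTR87, with MLT1O, MLT1J1 and MLT2F among the others, and MLT1O had no tested value at 24 h for that reason. Member counts were uneven: only 10 of 61 members exceeded 20 counts in KG8-02 and 21 in KG8-12, against all 61 in KG8-07, KG8-13 and KG8-14. Library totals did not follow this order: KG8-02 had 8758552 counts and KG8-07 had 6591064. Outside the 5 most abundant features KG8-02 had 158820 counts and KG8-07 had 1901988. At 24 h, 20 of 76 members had no count in ai_5 and none had 0 in ai_8.

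The members' share of all RNA counted at 46 days varied far more between libraries than their share of element RNA once the most abundant elements were set aside. As a share of all counts they took a median of 0.0297% in the 7 TESA libraries, from 0.00951% (KG8-02) to 0.136% (KG8-11). In the 7 CTRL libraries the median was 0.0919%, from 0.0329% (KG8-06) to 0.346% (KG8-14). The groups overlapped, and highest and lowest library differed by 36.3-fold. An 18S ribosomal RNA row, Rn18s-rs5, alone took 30.6% to 74.8% of the counts in TESA libraries and 8.64% to 64.3% in CTRL libraries, with KG8-11 and KG8-14 at the low end. Its part in the members' shares was not tested.

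Among element counts alone the members took a median of 0.423% in TESA, from 0.168% (KG8-12) to 0.814% (KG8-11), and 0.853% in CTRL, from 0.350% (KG8-06) to 1.79% (KG8-14). The 3 most abundant elements, B4A, L1Md_F2 and L1Md_F3, include 2 LINE-1 families. With these 3 set aside, the members took 2.24% ± 0.223 (SD, n = 7) of the remaining element counts in TESA and 2.44% ± 0.148 (SD, n = 7) in CTRL. The values then ran from 1.91% to 2.48% in TESA and from 2.16% to 2.60% in CTRL, and the groups overlapped. Libraries KG8-11, KG8-12 and KG8-14 were the lowest of the 14, at 1.91%, 1.98% and 2.16%.

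The same contrast appeared between the scalings. Summed over all members, the level under TMM over all features was 643 ± 280 CPM in TESA and 757 ± 197 CPM in CTRL (SD, n = 7 each), with KG8-01 (248), KG8-11 (281) and KG8-14 (424) the lowest. Scaled over elements only it was 5938 ± 304 CPM in TESA and 6008 ± 251 CPM in CTRL, and every library lay between 5415 and 6297. Set against the typical element, the members' summed level thus differed little between libraries. The TMM factors over all features ran from 0.0981 (KG8-02) to 8.15 (KG8-14) at 46 days, with medians of 0.462 in TESA and 1.09 in CTRL. With these factors KG8-02 stood at 970 CPM on 833 member counts, and KG8-14 at 424 CPM on 33246. Every level and fold change at 46 days under TMM over all features rests on these uneven factors. At 24 h the factors ran from 0.771 (ai_2) to 1.57 (ai_7).

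**Figure D1:**
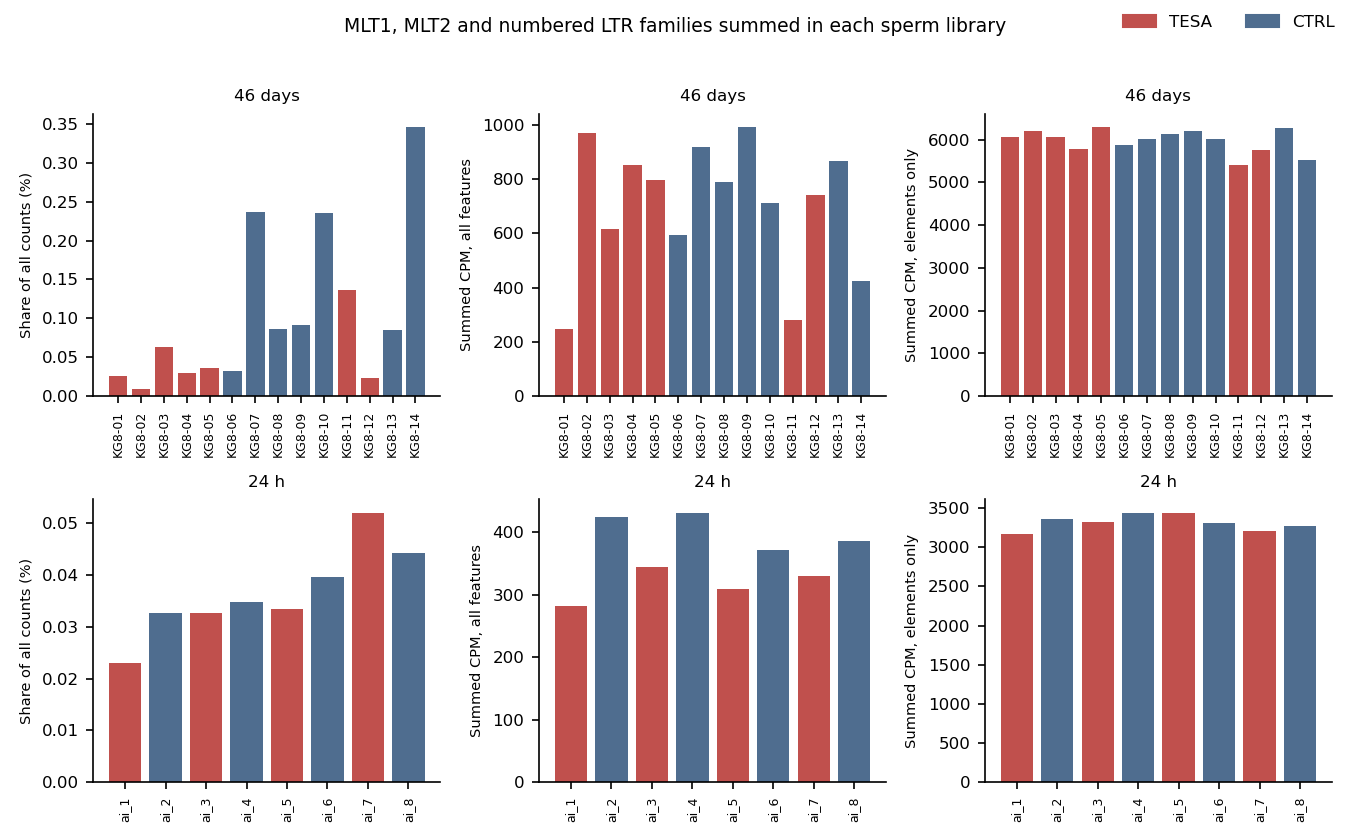
Counts of all MLT1, MLT2 and numbered LTR families summed in each library (bars; red TESA, blue CTRL), as a percentage of all counts (left), as CPM with TMM over all features (middle) and as CPM with scaling over elements only (right), at 46 days (top) and 24 h (bottom). At 46 days the bars on the right stay between 5415 and 6297 CPM while those on the left range from 0.00951% to 0.346%.

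At 24 h the members took 0.0353% ± 0.0121 of all counts in TESA and 0.0379% ± 0.00520 in CTRL (SD, n = 4 each). The 3 most abundant elements at 24 h were L1Md_T, ORR1A3 and L1Md_F2. With these set aside, the members took 1.18% ± 0.0768 of the remaining element counts in TESA and 1.34% ± 0.118 in CTRL. These shares ran from 1.08% to 1.26% in TESA and from 1.18% to 1.46% in CTRL, and the groups overlapped. The members' summed level under TMM over all features was 282 CPM in ai_1, 345 in ai_3, 309 in ai_5 and 331 in ai_7, the TESA libraries. It was 425 CPM in ai_2, 431 in ai_4, 372 in ai_6 and 386 in ai_8, the CTRL libraries, so that every TESA library lay below every CTRL library. Scaled over elements only, the sums were 3285 ± 123 CPM in TESA and 3347 ± 71.4 CPM in CTRL (SD, n = 4 each) and overlapped.

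Within each table the mean makeup of the members differed between TESA and CTRL by less than the SD of either group, except for MLT2 at 24 h. There the difference exceeded the TESA SD and lay within the CTRL SD. MLT1 families supplied 77.2% ± 1.41 of member counts in TESA and 77.1% ± 0.925 in CTRL at 46 days (SD, n = 7 each), MLT2 10.1% ± 0.524 and 10.3% ± 0.728, and numbered LTRs 12.7% ± 0.980 and 12.5% ± 0.548. At 24 h MLT1 supplied 80.8% ± 2.57 in TESA and 79.0% ± 1.96 in CTRL, MLT2 5.52% ± 0.659 and 6.79% ± 1.31, and numbered LTRs 13.7% ± 2.03 and 14.2% ± 1.10 (SD, n = 4 each). Single libraries at 24 h ranged from 5.05% (ai_5) to 8.74% (ai_2) for MLT2. The Spearman rho of a library's member shares with the mean of the others ran from 0.823 to 0.981 at 46 days and from 0.756 to 0.893 at 24 h. The same 5 families, MLT1D, MLT1A0, MLT1B, MLT1C and MLT1A1, had the highest counts in both tables. Across the 55 families with a row in both tables, the CTRL libraries' mean shares of member counts had a Spearman rho of 0.889. This is a description across families, which share copy number and length in both tables and are not independent replicates.

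The scaling also set how far families varied between libraries of 1 group. At 46 days the median biological coefficient of variation of the 59 tested members was 0.412 under TMM over all features, against 0.408 over all 567 tested elements. Scaled over elements only, it was 0.106 for the members and 0.113 for all tested elements. At 24 h it stayed at 0.469 and 0.458 for the 50 tested members under the respective scalings, against 0.368 and 0.364 for all 542 tested elements.

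The first comparison was of TESA and CTRL sperm collected 46 days after the last injection. No member passed at 46 days. Under TMM over all features, edgeR's quasi-likelihood test called 0 of 59 members at an adjusted p under 0.05 (Benjamini-Hochberg over all 567 tested elements), where 1 element (0.176%) was called: MMVL30-int, the internal part of a virus-like retrotransposon and not a member, named here because of its value. At an unadjusted p under 0.05, 5 of 59 members were lower in TESA (8.47%, against 2.47% of all tested elements) and 0 were higher (against 1.41%). DESeq2 gave 0 called with 6 lower (against 2.82% of elements) and 0 higher (against 0.705%), and called 0 elements. The edgeR exact test gave 0 called with 5 lower (2.29% of elements) and 0 higher (1.41%), and called 6 of 567 elements. Limma voom with quality weights, which weighs libraries as well as changing the test, gave 0 called with 3 lower (3.00% of elements) and 0 higher (1.59%), and called 4 elements. Leaving out KG8-09 or KG8-11 left 0 members lower, leaving out KG8-01, KG8-03, KG8-07 or KG8-13 left 1, leaving out KG8-08 left 2, and leaving out KG8-02 or KG8-10 left 3. Libraries KG8-01 to KG8-10 alone gave 1 lower member, and leaving out both KG8-02 and KG8-12 gave 3.

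The median log2 fold change of the 59 members was -0.31, against -0.25 over all tested elements, and 58 of 59 members (98.3%) had a negative value, as had 531 of 567 elements (93.7%). The members' median was -0.16 without KG8-01, -0.15 without KG8-11 and -0.54 without both KG8-02 and KG8-12. Limma voom with quality weights gave -0.10, with 375 of 567 elements negative. Under scaling over elements only the medians were -0.027 and 0.016, and 38 of 59 members were negative against 265 of 567 elements. The members' median was then -0.012 without KG8-01, -0.052 without KG8-05 or KG8-14, -0.017 without KG8-07, -0.0074 without KG8-11 and -0.015 without KG8-13. That scaling again called 0 of 59 members and 0% of elements. At an unadjusted p under 0.05 it put 4 members lower (6.78%, against 4.94% of elements) and 2 higher (3.39%, against 6.35%). DESeq2 then put 3 members lower (against 4.41% of elements) and 2 higher (7.94%), the exact test 5 (5.82%) and 2 (4.94%), and limma voom 2 (3.00%) and 1 (3.17%). Each of these tools called 0 members and 0 elements. Leaving out KG8-05 raised the 4 lower members to 9 and leaving out KG8-11 brought them to 2. Leaving out both KG8-02 and KG8-12 also brought them to 2. The 2 higher members became 0 without KG8-01 or KG8-07 and 1 without KG8-03, KG8-04, KG8-08, KG8-11 or KG8-14. They became 0 in 1 fit over all features and 1 with libraries KG8-01 to KG8-10 alone. Under neither scaling did any tested element have every TESA library on 1 side of every CTRL library (0%).

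Plain library totals gave another picture. With all counts as the library size and no TMM, 58 of 59 members passed as lower in TESA, with a median of -1.77, and so did 540 of 567 elements (95.2%), with a median of -1.74. With element counts as the library size and no TMM, 57 members passed, with a median of -1.27, and so did 546 elements (96.3%), with a median of -1.25. Members and all tested elements moved by nearly the same amount in each case. The share of Rn18s-rs5, given above, enters the first of these totals. B4A, with 23.5% to 51.8% of element counts in TESA libraries and 6.81% to 42.7% in CTRL libraries, enters both.

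Among single families at 46 days, LTR40a had the smallest p. Its TMM-scaled level ran from 0.335 (KG8-01) through a median of 2.44 to 5.10 CPM in TESA, and from 2.47 (KG8-14) through 5.08 to 5.90 CPM in CTRL. The groups overlapped, and KG8-01 held 3 counts only. The log2 fold change was -0.87 ± 0.39 (SE; adjusted p = 0.841), and -0.51 ± 0.17 with scaling over elements only (adjusted p = 0.364, edgeR's quasi-likelihood test here and below).

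MLT1O, a late-letter MLT1 family, ran from 0.928 (KG8-11) through 2.12 to 2.72 CPM in TESA and from 1.82 (KG8-14) through 3.42 to 4.61 CPM in CTRL. Its log2 fold change was -0.89 ± 0.40 (adjusted p = 0.841), and -0.43 ± 0.18 with scaling over elements only (adjusted p = 0.409). LTR37A, an LTR of an old ERV1-type retrovirus, ran from 0.558 (KG8-01) through 2.33 to 2.72 CPM in TESA and from 1.53 (KG8-14) through 2.65 to 4.17 CPM in CTRL. The groups overlapped, and the log2 fold change was -0.85 ± 0.41 (adjusted p = 0.841), or -0.42 ± 0.20 with scaling over elements only (adjusted p = 0.409).

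MLT2C2, an ERVL LTR, ran from 7.44 (KG8-02) through 26.0 to 35.4 CPM in TESA and from 28.2 through 33.9 to 37.1 CPM in CTRL when scaled over elements only. Its log2 fold change was -0.77 ± 0.39 (adjusted p = 0.841), and -0.38 ± 0.14 with scaling over elements only (adjusted p = 0.364). These 4 families are the ones with an unadjusted p under 0.05 under both scalings, and none passed after adjustment. Limma voom with quality weights under TMM over all features gave smaller values: LTR40a -0.53, MLT1O -0.40, LTR37A -0.41 and MLT2C2 -0.59. Each rested on few reads, with 1 to 3 counts in the poorest library and 120 to 204 in the richest. MLT1J2 had an unadjusted p under 0.05 with TMM over all features alone (log2 fold change -0.76 ± 0.38, adjusted p = 0.841) and gave -0.35 ± 0.17 with scaling over elements only (adjusted p = 0.421). Limma voom with quality weights gave it -0.41 under TMM over all features.

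At the upper end stood LTR28B, the 1 tested member with a positive value under TMM over all features. It ran from 1.80 (KG8-11) through 3.46 to 3.72 CPM in TESA and from 2.05 (KG8-14) through 2.74 to 3.29 CPM in CTRL, and its log2 fold change was 0.13 ± 0.39 (adjusted p = 0.891). Relative to the typical element the value was 0.62 ± 0.25 (adjusted p = 0.389), and KG8-01 stood at 84.5 CPM while the other 6 TESA libraries lay between 18.7 and 36.6. Without KG8-01 the log2 fold change was 0.38. MLT1G, named after its value was seen, was the other member with an unadjusted p under 0.05 in the higher direction there (0.29 ± 0.13, adjusted p = 0.409). MLT1H2 (-0.11 ± 0.38) and MLT1K (-0.11 ± 0.34) had the next highest values under TMM over all features. At 24 h LTR28B was negative, with -0.85 ± 0.54 under TMM over all features and -0.50 ± 0.53 with scaling over elements only.

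**Figure D2:**
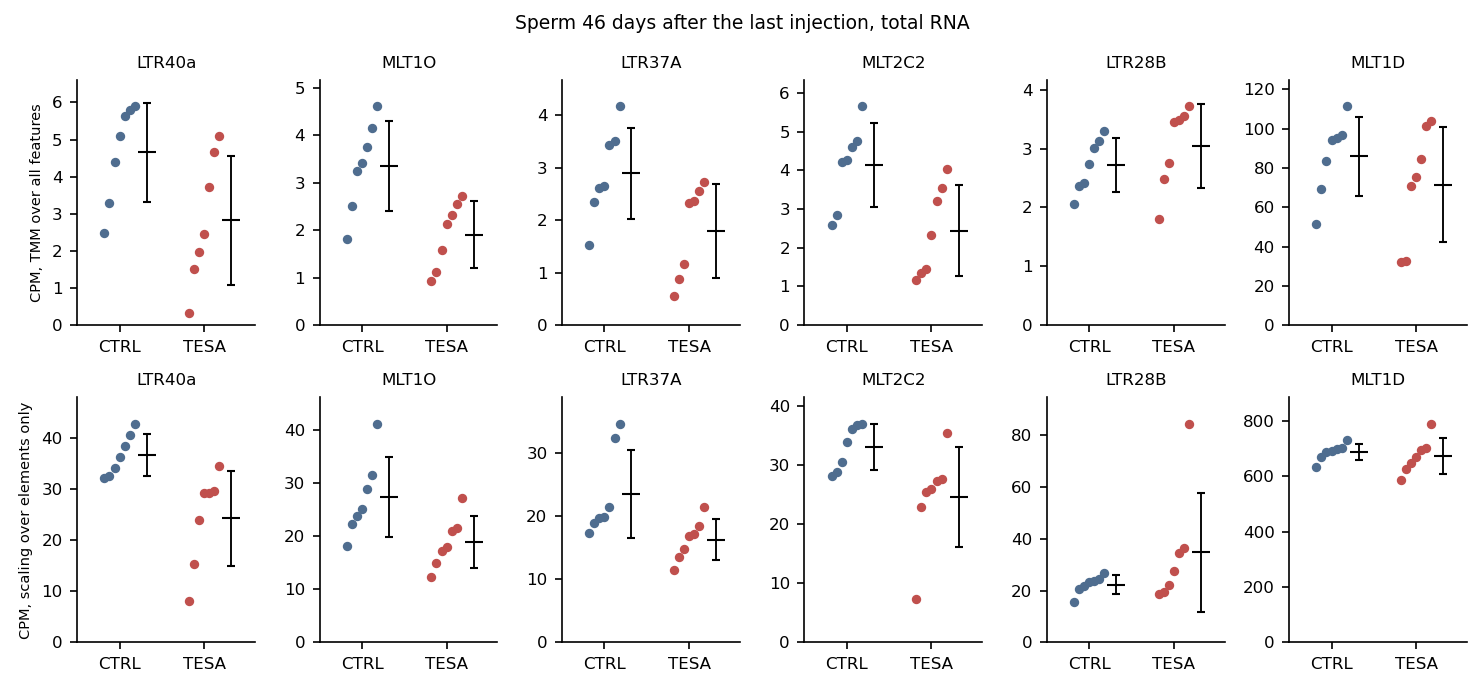
CPM of 6 families in each sperm library at 46 days (points; blue CTRL, red TESA; 7 libraries each), with TMM over all features (top) and scaling over elements only (bottom); bars give the mean ± SD. TESA and CTRL overlap in every panel, and KG8-01 stands at 84.5 CPM for LTR28B in the lower row.

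The 5 families with the most counts had SEs of 0.065 to 0.076 with scaling over elements only. MLT1D stood at 587 to 791 CPM in TESA and 633 to 730 CPM in CTRL, a log2 fold change of -0.027 ± 0.065. MLT1A0 gave 0.028 ± 0.069, MLT1B -0.016 ± 0.067, MLT1C 0.020 ± 0.076 and MLT1A1 -0.083 ± 0.075. Under TMM over all features the same families gave -0.27 ± 0.31, -0.21 ± 0.31, -0.25 ± 0.31, -0.21 ± 0.31 and -0.30 ± 0.31 in that order. Relative to the typical element only MLT1A1 lay further than 1 SE from 0.

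By subfamily at 46 days under TMM over all features, the later MLT1 letters had the lowest median of the 3 MLT1 sets. The 6 tested MLT1A to MLT1D families had a median log2 fold change of -0.24, the 14 MLT1E to MLT1H families -0.27 and the 8 MLT1I to MLT1O families -0.42. Relative to the typical element these medians were -0.012, -0.011 and -0.20, and 4 of 6, 8 of 14 and 7 of 8 families were negative. The 9 MLT2 families had medians of -0.33 and -0.041 under the respective scalings. The 21 numbered LTRs had -0.39 and -0.010, with LTR16 (6 families) at -0.32 and 0.0020 and LTR33 (3 families) at -0.28 and -0.010. MLT1F-int, the 1 internal part tested, gave -0.76 ± 0.41 and -0.094 ± 0.27 and had no count in KG8-02 and KG8-12.

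The younger MaLR families, MT and ORR1 (54 tested), had medians of -0.31 and -0.072. The L2, L3 and MIR families (10 tested), which are old repeats without LTRs, had -0.11 and 0.14, and with scaling over elements only all 10 were positive. No difference between these sets was tested.

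The second comparison was of sperm collected 24 h after the last injection. No member passed at 24 h. Under TMM over all features, edgeR's quasi-likelihood test called 0 of 50 members and 0% of the 542 tested elements. At an unadjusted p under 0.05, 7 of 50 members were lower (14%, against 11.8% of all tested elements) and 0 higher (against 0.185%, the single family BGLII_B2). DESeq2 put 8 of 50 members lower (against 12.7% of elements) and 0 higher (against 0.185%). The exact test put 7 lower (against 12.0% of elements) and limma voom 9 (against 17.2%), with 0 higher in each (against 0.369%). Each of these tools called 0 members and 0 elements. Leaving out ai_1 left 2 members lower and leaving out ai_2 left 3. The members' share was thus near that of all elements.

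The median log2 fold change of the 50 members was -0.39, against -0.32 over all tested elements, with 36 of 50 members (72.0%) and 429 of 542 elements (79.2%) negative. Library totals without TMM gave a median of -0.14, with 320 of 542 elements negative and 0 members lower at an unadjusted p under 0.05. Under scaling over elements only the medians were -0.074 and -0.00042, with 28 of 50 members and 272 of 542 elements negative. The members' median was then -0.18 without ai_3, -0.0033 without ai_4, -0.14 without ai_5 and -0.16 with element totals and no TMM. That scaling called 0 of 50 members and 0% of elements, and put 0 members lower (against 0.738% of elements) and 0 higher (against 2.77%) at an unadjusted p under 0.05. DESeq2 then put 1 member lower (against 0.923% of elements) and 0 higher (4.24%), the exact test 1 (0.923%) and 0 (3.14%), and limma voom 2 (4.43%) and 0 (3.69%). Each of these tools called 0 members and 0 elements. Leaving out ai_1, ai_3 or ai_5 gave 1 lower member each, leaving out ai_3 gave 2 higher and leaving out ai_6 gave 1 higher.

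Every TESA library lay below every CTRL library for 6 of 50 members under TMM over all features (12%, against 8.3% of all tested elements), namely LTR16B, MLT1A0, MLT1K, MLT2B1, MLT2C1 and MLT2D. None lay above (0% of elements). Scaled over elements only, MLT2C1 alone was left among the members (2%, against 1.48% of elements), and 0 members lay above (against 1.11%).

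MLT2C1, an ERVL LTR, had the lowest log2 fold change at 24 h. Scaled over elements only, its levels were 6.93, 0, 10.4 and 7.35 CPM in TESA (ai_1, ai_3, ai_5 and ai_7) and 11.9, 27.1, 24.6 and 19.4 CPM in CTRL (ai_2, ai_4, ai_6 and ai_8). The highest TESA library lay below the lowest CTRL library, on 0 to 69 counts per library. The log2 fold change was -2.09 ± 0.87 (adjusted p = 0.336), and -1.75 ± 0.88 with scaling over elements only (adjusted p = 0.938). At 46 days the same family gave -0.52 ± 0.38 and -0.27 ± 0.15 under the respective scalings, and its groups overlapped.

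With TMM over all features, MLT2D stood at 2.90, 2.51, 1.72 and 1.17 CPM in TESA and at 8.27, 2.91, 4.80 and 3.41 CPM in CTRL, in the order of libraries just given. The closest libraries, ai_1 and ai_4, were nearly equal, and with scaling over elements only the groups overlapped. The log2 fold change was -1.23 ± 0.47 (adjusted p = 0.336), and -0.89 ± 0.47 with scaling over elements only (adjusted p = 0.938). MLT1K stood at 4.93, 8.61, 8.23 and 7.66 CPM in TESA and 17.5, 12.1, 9.65 and 10.8 CPM in CTRL, and gave -0.76 ± 0.29 (adjusted p = 0.336) and -0.44 ± 0.27 with scaling over elements only (adjusted p = 0.938). Without ai_2 the values relative to the typical element were -0.55 for MLT2D and -0.26 for MLT1K.

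Of the abundant families, MLT1C stood at 11.5, 25.6, 14.6 and 17.4 CPM in TESA and 32.1, 31.7, 22.7 and 26.6 CPM in CTRL. The groups overlapped through ai_3, and MLT1C had the smallest p of the members at 24 h, with -0.71 ± 0.26 (adjusted p = 0.336) and -0.40 ± 0.23 with scaling over elements only (adjusted p = 0.938). MLT1A gave -0.63 ± 0.26 (adjusted p = 0.336) and -0.32 ± 0.23 (adjusted p = 0.956). MLT1A0 stood at 25.2 ± 3.11 CPM in TESA and 37.6 ± 11.2 CPM in CTRL (SD, n = 4 each) and gave -0.57 ± 0.23 (adjusted p = 0.336, edgeR) and -0.24 ± 0.21, with ai_4 at 53.8 CPM the highest library. Without ai_4 the values were -0.33 and -0.048.

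MLT1B, the family with the most counts at 24 h (17.6% of member counts), was the 1 family of MLT1A to MLT1D with a positive value. It stood at 52.9, 45.2, 79.0 and 72.8 CPM in TESA and 57.2, 61.5, 72.4 and 47.7 CPM in CTRL. The groups overlapped, and the log2 fold change was 0.067 ± 0.22, or 0.39 ± 0.23 with scaling over elements only (adjusted p = 0.938). MLT1D gave -0.38 ± 0.23 and -0.072 ± 0.20, and MLT1A1 -0.39 ± 0.25 and -0.076 ± 0.26. Under TMM over all features MLT1A1 gave -0.18 without ai_8, and MLT1D ranged from -0.57 (without ai_3) to -0.25 (without ai_5).

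The extreme values at 24 h otherwise came from families with few reads. MLT1A-int, an internal part, had the highest log2 fold change, 1.03 ± 0.81 (adjusted p = 0.581) and 1.36 ± 0.80 with scaling over elements only (adjusted p = 0.938), on 1 to 50 counts per library. MLT1E1 gave 0.50 ± 0.50 and 0.83 ± 0.49, and 0.19 and 0.43 without ai_5. LTR84b gave 0.26 ± 1.28 and 0.46 ± 1.28, with no count in ai_1, ai_2 and ai_5, and LTR41 gave -1.54 ± 1.07 and -1.25 ± 1.04. MLT1J2, which was among the lowest at 46 days too, gave -1.27 ± 1.10 and -1.03 ± 1.09 and had no count in ai_1 and ai_5. Leaving out 1 library moved MLT1J2 between -2.81 (without ai_3) and -0.84 (without ai_5), or -2.54 and -0.64 scaled over elements only. It moved LTR41 between -2.83 (without ai_7) and -1.11 (without ai_4), or -2.50 (without ai_7) and -0.86 (without ai_5).

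**Figure D3:**
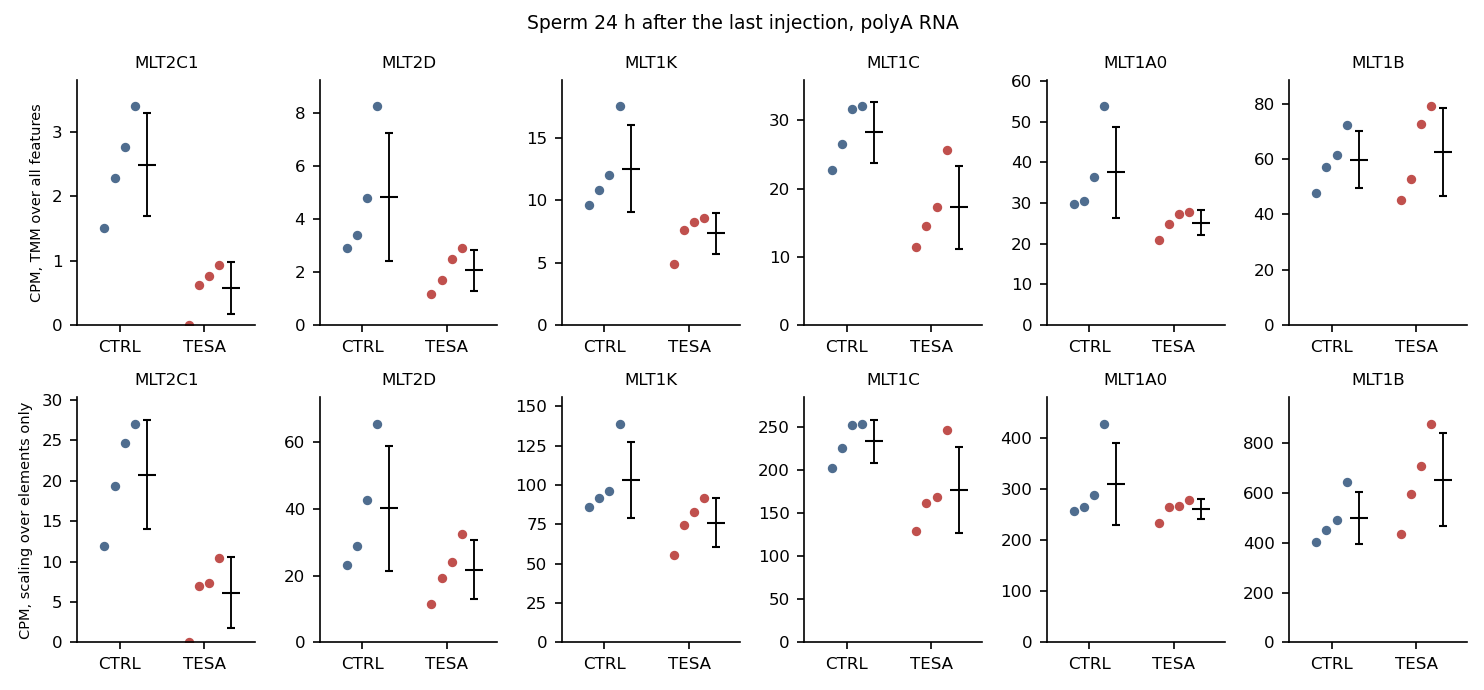
CPM of 6 families in each sperm library at 24 h (points; blue CTRL, red TESA; 4 libraries each), with TMM over all features (top) and scaling over elements only (bottom); bars give the mean ± SD. MLT2C1 is the one panel pair in which the groups stay apart under both scalings, and MLT1B overlaps in both.

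By subfamily at 24 h, the 6 tested MLT2 families had the lowest median, -0.87 under TMM over all features and -0.56 with scaling over elements only, with 4 of 6 negative under each. The 6 MLT1A to MLT1D families had medians of -0.48 and -0.16, the 13 MLT1E to MLT1H families -0.15 and 0.17, and the 5 MLT1I to MLT1O families -0.39 and -0.075. The 19 numbered LTRs had -0.43 and -0.19, with the 4 LTR16 families at -0.72 and -0.40. MT and ORR1 (54 families) had -0.32 and -0.0051, and L2, L3 and MIR (10 families) -0.46 and -0.14, with all 10 negative under both. The L2, L3 and MIR median with scaling over elements only was thus above 0 at 46 days and below 0 at 24 h. No difference between these sets was tested.

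**Figure D4:**
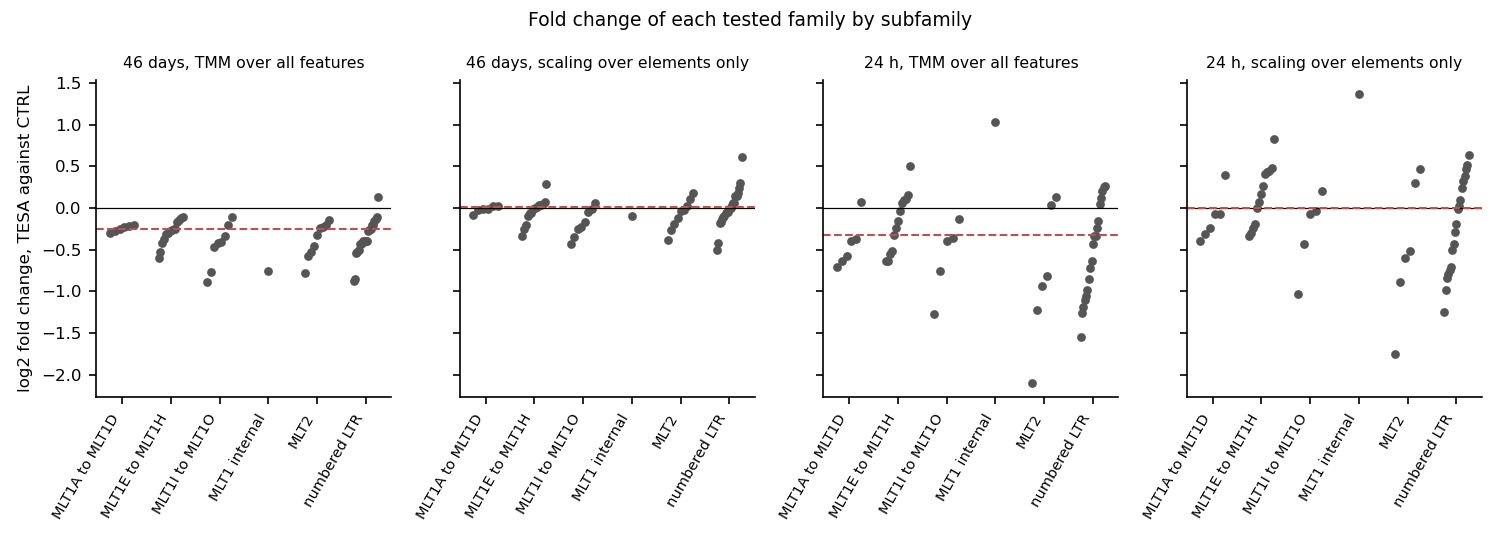
Log2 fold change (TESA against CTRL) of every tested member, one point per family, by subfamily, at 46 days (59 families) and 24 h (50 families) under each scaling; the dashed line is the median of all tested elements and the solid line is 0. At 46 days the points shift from around -0.31 to around -0.027 between the scalings, and at 24 h they spread from -2.09 to 1.03 under TMM over all features.

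Whether the treatment difference itself changed between time points was tested in 1 edgeR model over all 22 libraries and the 507 elements tested in both tables, 45 of them members. The quasi-likelihood test called 0 of 45 members under TMM over all shared features (0% of elements; smallest adjusted p of a member 0.962), with 0 members and 17 elements at an unadjusted p under 0.05. The other scaling called 0 members again (0% of elements; smallest adjusted p 0.303), with 7 members and 56 elements at an unadjusted p under 0.05. The median difference of the members' log2 fold changes, 46 days minus 24 h, was -0.12 and 0.084 in these fits, against -0.17 and 0.046 over all 507 elements. The negative sign under TMM was not that of the separate fits. Those gave medians of -0.31 at 46 days (59 members) and -0.39 at 24 h (50 members). The joint fits used 45 members and factors computed over all 22 libraries together, and the part of each in the sign was not tested. No other tool was run on this difference.

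Genes that silence transposable elements showed no call. Of 36 such genes, 5 had a row at 46 days and all 5 were tested. edgeR's quasi-likelihood test over all mRNAs and lincRNAs called 0 of the 5, as it called 0 of 2261 tested genes. None of the 5 had an unadjusted p under 0.05, against 5.75% of tested genes, and no other tool was run on them. Of the 5, 3 were negative, against 1009 of 2261 tested genes. The smallest p belonged to Morc2a, a chromatin compactor that works with the HUSH silencing complex (log2 fold change -0.21 ± 0.23, adjusted p = 0.999). Tdrd9, a piRNA pathway helicase, gave -0.27 ± 0.51 and Ddx4, a germ cell RNA helicase, 0.21 ± 0.51.

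At 24 h 26 of the 36 genes had a row and 24 were tested. Of these, 0 were called (0 of 13032 tested genes) and 0 had an unadjusted p under 0.05 (against 2.40% of tested genes). Of the 24, 11 were negative, against 6639 of 13032 tested genes. Zfp809, a KRAB zinc finger protein that recruits silencing to proviruses, stood at 3.53 CPM in TESA and 5.70 CPM in CTRL (log2 fold change -0.69 ± 0.36, adjusted p = 1.00). Morc2a gave -0.81 ± 0.43 (adjusted p = 1.00) and Mael, a piRNA pathway factor, -0.77 ± 0.43 (adjusted p = 1.00). Trim28, the corepressor that KRAB zinc finger proteins recruit, stood at 26.2 CPM in TESA and 25.1 CPM in CTRL (0.061 ± 0.20).

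The sperm label held in both tables: all 11 sperm and late spermatid markers had a row and a count in every library. Their summed level was 617 ± 151 CPM in TESA and 636 ± 160 CPM in CTRL at 46 days (SD, n = 7 each), with Prm2 the most abundant (25.6% of the sum). At 24 h it was 7654 ± 2409 and 7749 ± 3280 CPM (SD, n = 4 each), with Odf1 the most abundant. None of 13 leukocyte, 11 epididymal epithelium and 7 somatic testis markers had a row at 46 days. Only 2457 genes had a row there, against 15373 at 24 h. A missing row at 46 days therefore does not show that such RNA was absent.

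At 24 h, 12 of 13 leukocyte markers had a row and summed to 196 ± 33.7 CPM in TESA and 191 ± 66.2 CPM in CTRL, with Cd74 the most abundant (34.2%) and 1 of the 12 at 0 in some library. The 6 of 11 epididymal epithelium markers with a row summed to 787 ± 175 CPM in TESA and 1174 ± 695 CPM in CTRL, with Crisp1 at 65.4% of the sum. The 1 of 7 somatic testis markers with a row, Sox9, stood at 3.23 ± 1.32 and 2.52 ± 1.13 CPM (SD, n = 4 each for all 3 lists). The groups overlapped for each list. RNA typical of other cells was thus counted beside sperm RNA at 24 h, and its part in the members' levels was not tested. In such bulk samples fewer cells of a type and less RNA per cell cannot be told apart.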

How the data were processed

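The authors trimmed reads with Trim Galore 1.16 and quantified them with Salmon 0.11.2 on GENCODE transcripts, piRNA precursors and RepeatMasker elements joined by family (GRCm38); the deposited values are estimated counts per gene or family, not normalized. Here they were rounded to whole numbers. Members and gene lists were chosen with earlier results of these data known. Elements were recognised by name. Each table was fitted alone with edgeR 4.0.16 (R 4.3.3): over 20 counts required in as many libraries as 80% of the smaller group, TMM over all features or scaling over elements only, quasi-likelihood test, adjusted over all tested elements at 0.05. The SE is the log2 fold change divided by the root of F. Steps were tested on simulated counts with known changes, drawn from 1 mean makeup per time point. That run checked the code and not the power in these uneven libraries.

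Named families are, per time point under TMM over all features, the 5 with most counts, the 5 smallest p, the 3 highest and 3 lowest fold changes, those with an unadjusted p under 0.05 under both scalings, and up to 5 whose groups do not overlap under both; silencing genes are the 3 smallest p per time point; others named are examples or were chosen after their values were seen. Alternatives were library totals, DESeq2 1.42.0 size factors and test, the exact test, limma 3.58.1 voom with quality weights (library weights and test change together, called limma voom throughout), other filters, 1 fit over all features, left-out libraries and a term for libraries KG8-11 to KG8-14. Serum libraries were not used. CPM has no interval here: replicate libraries give its error.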

Additional observations from a re-analysis of the deposited data

Results flagged for a closer look

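Of 124 groups of values examined for a library far from its group by Dixon's test at 95%, 6 held one; chance gives about 1 in 20. At 46 days KG8-02 stood at 12.8 CPM for MLT1H2 (TMM over all features), with the other TESA libraries at 6.32 CPM or less. With scaling over elements only, KG8-12 stood at 726 CPM for MLT1A0, with the other TESA libraries at 590 CPM or less, and KG8-01 at 84.5 CPM for LTR28B, with the next at 36.6 CPM. KG8-11 held 0.136% of all its counts in the members, with the next TESA library at 0.0633%.

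At 24 h ai_4 stood at 48.4 CPM for MLT1D (TMM over all features), with the other CTRL libraries at 38.5 CPM or less. With scaling over elements only ai_3 stood at 130 CPM for MLT1A, with the other TESA libraries at 96.4 CPM or less. No cause was tested.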

How the results depend on the processing

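No paired analysis was possible because no library number is shared by the groups compared. The count of members called was 0 under every alternative and with each library left out, at both time points, except with library totals and no TMM at 46 days: 58 members with all counts and 57 with element counts, with medians of -1.77 and -1.27 in place of -0.31 and -0.027. Limma voom with quality weights, which changes both the test and the weight of each library, moved the first of these to -0.10, with 375 of 567 elements negative in place of 531. At 24 h library totals moved the medians from -0.39 to -0.14 and from -0.074 to -0.16, and the 7 members lower at an unadjusted p under 0.05 under TMM over all features became 0. Leaving out 1 library moved the median between -0.54 (without ai_3) and -0.31 at 24 h under TMM over all features, between -0.18 (without ai_3) and -0.0033 with scaling over elements only, and at 46 days between -0.43 and -0.15, and -0.052 and -0.0074. Libraries KG8-01 to KG8-10 alone gave medians of -0.30 and -0.047, a term for KG8-11 to KG8-14 gave -0.33 and -0.028, and leaving out both KG8-02 and KG8-12 gave -0.54 and -0.048. The difference between time points kept a count of 0 with scaling over elements only.

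Named families that changed sign all had an adjusted p above 0.05 in the fit reported. At 46 days under TMM over all features, library totals gave LTR28B -1.11, and limma voom gave MLT1C 0.017 and MLT1K 0.13; leaving out 1 library gave MLT1K -0.28 to 0.051 and MLT1H2 -0.35 to 0.085. With scaling over elements only, library totals gave MLT1A0 -1.26, MLT1C -1.25, LTR28B -0.64, MLT1H2 -1.18 and MLT1K -1.19. Limma voom gave MLT1A0 -0.028 and MLT1H2 -0.0086. KG8-01 to KG8-10 alone gave MLT1D 0.027 and MLT1A0 -0.053, and leaving out KG8-02 and KG8-12 gave MLT1D 0.015, MLT1A0 -0.019, MLT1B 0.0014 and MLT1H2 -0.026. Leaving out 1 library gave MLT1C -0.021 to 0.067, MLT1H2 -0.012 to 0.20, MLT1K -0.0053 to 0.14, MLT1B -0.048 to 0.018, MLT1D -0.066 to 0.0042 and MLT1A0 -0.022 to 0.048.

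At 24 h limma voom gave LTR84b -0.59 under TMM over all features and -0.12 with scaling over elements only. Leaving out 1 library gave LTR84b -0.73 to 0.71 and MLT1B -0.051 to 0.19 under TMM over all features, and LTR84b -0.53 to 0.95, MLT1D -0.22 to 0.0082 and MLT1A1 -0.28 to 0.15 with scaling over elements only.

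Other moves of more than 1.5-fold kept the sign of the fit reported, apart from library totals at 46 days. Some of these families changed sign under another setting, as given above. At 46 days library totals moved every named family. Under TMM over all features limma voom gave LTR40a -0.53, MLT1O -0.40, LTR37A -0.41, MLT1J2 -0.41, MLT1D -0.13, MLT1A0 -0.060, MLT1B -0.092 and MLT1A1 -0.11. Leaving out 1 library gave MLT1D -0.41 to -0.15, MLT1A0 -0.35 to -0.071, MLT1B -0.39 to -0.12, MLT1C -0.34 to -0.065, MLT1A1 -0.42 to -0.15 and LTR28B 0.041 to 0.26. With scaling over elements only it gave LTR28B 0.38 (without KG8-01) to 0.74, and MLT1A1 -0.12 to -0.052. Under that scaling, 1 fit over all features gave MLT1H2 0.24. Libraries KG8-01 to KG8-10 alone then gave MLT1K 0.18 and MLT1C 0.088.

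At 24 h under TMM over all features library totals gave MLT1B 0.34, MLT1D -0.14, MLT1A1 -0.23, MLT1A0 -0.30, MLT1C -0.45, MLT1K -0.47 and MLT1A -0.40. Limma voom gave MLT1J2 -2.90 and LTR41 -0.91, and with scaling over elements only MLT1J2 -2.62, LTR41 -0.48 and MLT1A0 -0.098. Leaving out 1 library under TMM over all features gave MLT1J2 -2.81 (without ai_3) to -0.84 (without ai_5), LTR41 -2.83 (without ai_7) to -1.11, MLT1D -0.57 to -0.25, MLT1A1 -0.56 to -0.18 (without ai_8), MLT1A0 -0.67 to -0.33 (without ai_4), MLT1E1 0.19 (without ai_5) to 0.68 and MLT1A-int 0.69 (without ai_4) to 1.42. With scaling over elements only it gave MLT1J2 -2.54 to -0.64, LTR41 -2.50 to -0.86, MLT1A0 -0.32 to -0.048, MLT1C -0.61 (without ai_3) to -0.28, MLT1B 0.21 (without ai_5) to 0.55, MLT1E1 0.43 to 0.98, and without ai_2 MLT2D -0.55 and MLT1K -0.26. The cause was not tested.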
